A study of Caenorhabditis elegans with 12 samples.

Results

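The 8 genes *cct-1* to *cct-8* encode the subunits of the cytosolic chaperonin of *C. elegans*, and their transcripts were followed in 12 RNA-sequencing libraries. They were chosen by name, as the rows of the deposited count table whose gene symbol holds a member of the *cct* family, and the rule used no measured value. Earlier results of these data were known, however, when the family was chosen. The table lists 41420 loci, of which 21204 had a count in some library. After loci with too few counts were set aside, 15403 were tested, and all 8 *cct* genes were among them.

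The chaperonin, also called CCT or TRiC, is a pair of stacked rings in which an ATP-driven cycle opens and closes a chamber around an unfolded protein. Each ring is built from 8 different but related subunits, so a complete complex needs the product of every *cct* gene. Actin and tubulin are its best known clients, and prefoldin, a smaller complex, hands them to it as they leave the ribosome. In yeast the subunits that correspond to *cct-1*, *cct-2*, *cct-4* and *cct-5* bind ATP strongly and those that correspond to *cct-3*, *cct-6*, *cct-7* and *cct-8* bind it weakly, and the genes are described below in that order.

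Whole worms of the wild type strain N2 Bristol and of strain VC1262, which carries the allele *osm-9(ok1677)*, were compared as late L4 larvae. OSM-9 is a TRPV channel subunit of sensory neurons that worms need to avoid strongly hypertonic places. Both strains spent 6 h on agar with 51 mM NaCl, the control, or with 200 mM NaCl, the hypertonic stress, and the study asked whether genes of protein homeostasis differ between the strains in either state. N2 gave 2 libraries and the mutant 4 under either condition, and the methods give from 2 to 4 independent experiments for each condition. The mutant is a single strain that develops slightly more slowly than N2, which the authors allowed for when they staged the worms. RNA came from whole worms, so fewer cells of a type and less RNA per cell cannot be told apart in any value below.

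The libraries held between 15949889 and 21418277 counts, and each *cct* gene with a locus of its own had between 3507 and 11582 counts in every library, while the locus that holds *cct-2* had between 17026 and 24273. Levels are given as CPM, a gene's count relative to the total of its library, scaled with TMM factors that ranged from 0.921 to 1.07. Strains and treatments were compared with the quasi-likelihood test of edgeR, called the edgeR QL test below, and a gene is said to be called where the p adjusted over all tested loci was 0.05 or less. The *osm-9* gene itself was not lower in the libraries labelled as mutant (log2 fold change 1.37, SE 0.35, adjusted p = 0.0299 by the edgeR QL test at 51 mM, and 0.20, adjusted p = 0.774, at 200 mM), so the strain of a library rests on its label. The *osm-9* locus had only 14 to 50 counts in a library (0.72 to 2.60 CPM). The paper describes *ok1677* as a deletion, and what it does to the count of the whole locus was not tested. Markers of other tissues and stages were counted too, and most molt markers were called higher in the mutant at 51 mM, as set out after the *cct* results. The molt calls were 5 of 7 at 51 mM and 1 of 7 at 200 mM, where 7.64% and 4.13% of all loci were called higher.

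The *cct* transcripts were abundant. The mean levels of the 7 genes with a locus of their own lay between percentiles 94.99 and 98.25 of the tested loci, and together these genes took 0.219% to 0.258% of the counts of a library. With the locus that *cct-2* shares with other genes, which lay at percentile 99.23, the share was 0.331% to 0.377%. The SD of their log2 CPM within a group had a median of 0.077 over the 8 genes, from 0.058 for *cct-1* to 0.14 for *cct-7*. Over all tested loci, most of which had lower levels, the median was 0.30. The loci were not matched for level, so whether the *cct* genes were steady for their level was not tested.

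The genes lie on chromosomes II, III, IV and V of the WBcel235 assembly and form no cluster. *cct-1* (II, 8185443 to 8187601), *cct-2* (II, 8927741 to 8929815), *cct-3* (II, 2233540 to 2243539) and *cct-4* (II, 8283667 to 8285711) are on the plus strand. *cct-5* (III, 4499188 to 4508114) and *cct-6* (III, 5853530 to 5855687) are on the minus strand, *cct-7* (V, 1872246 to 1875505) is on the plus strand, and *cct-8* (IV, 1087108 to 1093920) is on the minus strand, 2.46 Mb from *osm-9*. Their longest annotated proteins run from 529 residues for *cct-2* to 549 residues for *cct-1*.

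The count for *cct-2* needs care. The deposited table joins it into 1 locus with *mrpl-50*, a mitochondrial ribosomal protein gene that starts 25 bp after it, and with *enol-1*, the gene for the glycolytic enzyme enolase, which starts 56 bp after *mrpl-50*. Reads of the 3 genes cannot be separated there, so its values describe the joined locus. Short exon overlaps with genes on the opposite strand also affect *cct-1* (117 bp, *T05C12.8*) and *cct-7* (28 bp, *zig-11*), and whether the counting used strand is not given in the sources used here.

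Per kilobase of annotated exon, the 7 genes with a locus of their own differed 3.07-fold between the highest and the lowest mean. *cct-5* stood at 280 ± 16.0 CPM per kb (SD, n = 12 libraries), above every other gene in every library. *cct-4* (194 ± 20.5), *cct-1* (181 ± 9.10), *cct-6* (160 ± 10.8) and *cct-7* (151 ± 13.9 CPM per kb) followed with ranges that overlapped from each gene to the next. *cct-3* (94.2 ± 11.4) and *cct-8* (91.2 ± 8.76 CPM per kb) formed the bottom of the order. All *cct-3* values lay below all *cct-7* values, whereas *cct-3* exceeded *cct-8* in only 7 of 12 libraries. These levels were not corrected for how evenly reads cover a gene. They also depend on the annotated exon length, which ran from 1854 bp for *cct-4* to 2358 bp for *cct-8* and 2602 bp for *cct-3*. The longest coding length varied far less, from 1605 bp for *cct-7* to 1647 bp for *cct-1*. The order and the spread therefore rest on the length used, and levels per coding length were not computed.

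**Figure D1:**
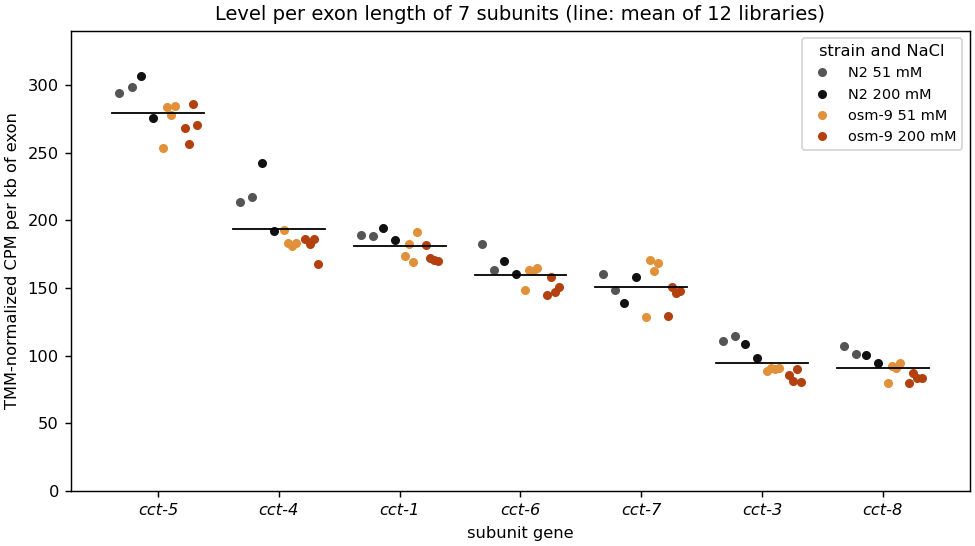
Level of 7 chaperonin subunit transcripts in 12 libraries, as TMM-normalized CPM per kb of exon (y axis, from 0) for each gene (x axis, ordered by mean). Points are libraries, coloured by strain and NaCl concentration, and lines are means; *cct-5* has a mean of 280 CPM per kb and *cct-8* of 91.2, and the *cct-2* locus is left out because it is shared.

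At 51 mM NaCl, the *cct* transcripts tended to be lower in *osm-9(ok1677)* than in N2, by small amounts. Of the 8 genes, 7 had a log2 fold change below 0, as did 45.6% of all tested loci, and the median of the 8 was -0.11 against 0.05 over all loci. One gene, *cct-3*, passed the test (1 of 8 lower, with 4.63% of all loci called lower and 12.3% called in either direction at an adjusted p of 0.05). In 4 of 8 genes every mutant library lay below both N2 libraries, which was so for 15.2% of all loci.

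Among the genes of the strong ATP binders, *cct-4* read 396 and 402 CPM in the N2 libraries and 358, 339, 336 and 339 CPM in the mutant libraries. All 4 mutant libraries were lower, yet the difference did not pass the test (log2 fold change -0.22, SE 0.11, adjusted p = 0.200 by the edgeR QL test). *cct-5* read 568 and 577 CPM in N2 and 489.5, 549, 537 and 550.4 CPM in the mutant, again without overlap. Its log2 fold change was -0.11 (SE 0.096, adjusted p = 0.499 by the edgeR QL test).

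*cct-1* read 353 and 352 CPM in N2 and 325, 341, 316 and 358 CPM in the mutant. The mutant libraries reached both sides of the N2 pair, and the log2 fold change was -0.07. The joined *cct-2* locus read 1089 and 1135 CPM in N2 and 1000.4, 1056, 999 and 1158 CPM in the mutant, with overlap and a log2 fold change of -0.08.

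Among the genes of the weak ATP binders, *cct-3* stood out. It read 289 and 297 CPM in N2 and 231, 237, 234 and 237 CPM in the mutant. The 2 groups were far apart and each was tight, with 293 ± 6.02 CPM (SD, n = 2) against 234 ± 2.92 CPM (SD, n = 4). *cct-3* was lower by 20.0% in the fit (log2 fold change -0.32, SE 0.091, 95% interval -0.52 to -0.12, adjusted p = 0.0413 by the edgeR QL test), and with the replicate number as a block the value was -0.33 (adjusted p = 0.0346 by the edgeR QL test, which then called 11.1% of all loci lower). This call is near the threshold: leaving out any 1 of the 6 libraries gave an adjusted p between 0.0565 and 0.154 by the edgeR QL test, with log2 fold changes between -0.36 and -0.31. DESeq2 gave *cct-3* an adjusted p of 0.000592, and edgeR's exact test called no *cct* gene and 15.3% of all loci. Replicate numbers are not shown to pair libraries between the strains, which limits every strain comparison made with the block, here and below.

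*cct-8* read 252 and 238 CPM in N2 and 188, 217, 214 and 223 CPM in the mutant, with no overlap. Its log2 fold change of -0.22 (SE 0.098) had an adjusted p of 0.165 by the edgeR QL test and of 0.0415 by DESeq2, which called 2 of the 8 genes and 18.5% of all loci. *cct-6* read 349 and 312 CPM in N2 and 284, 312, 311 and 316 CPM in the mutant, where 1 N2 library was high and 1 mutant library low. Its log2 fold change was -0.11.

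*cct-7* was the exception in sign. It read 362 and 335 CPM in N2 and 290.0, 385, 367 and 381 CPM in the mutant, with 3 mutant libraries above both N2 libraries and 1 below. Its log2 fold change was 0.03, with a 95% interval from -0.26 to 0.31.

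**Figure D2:**
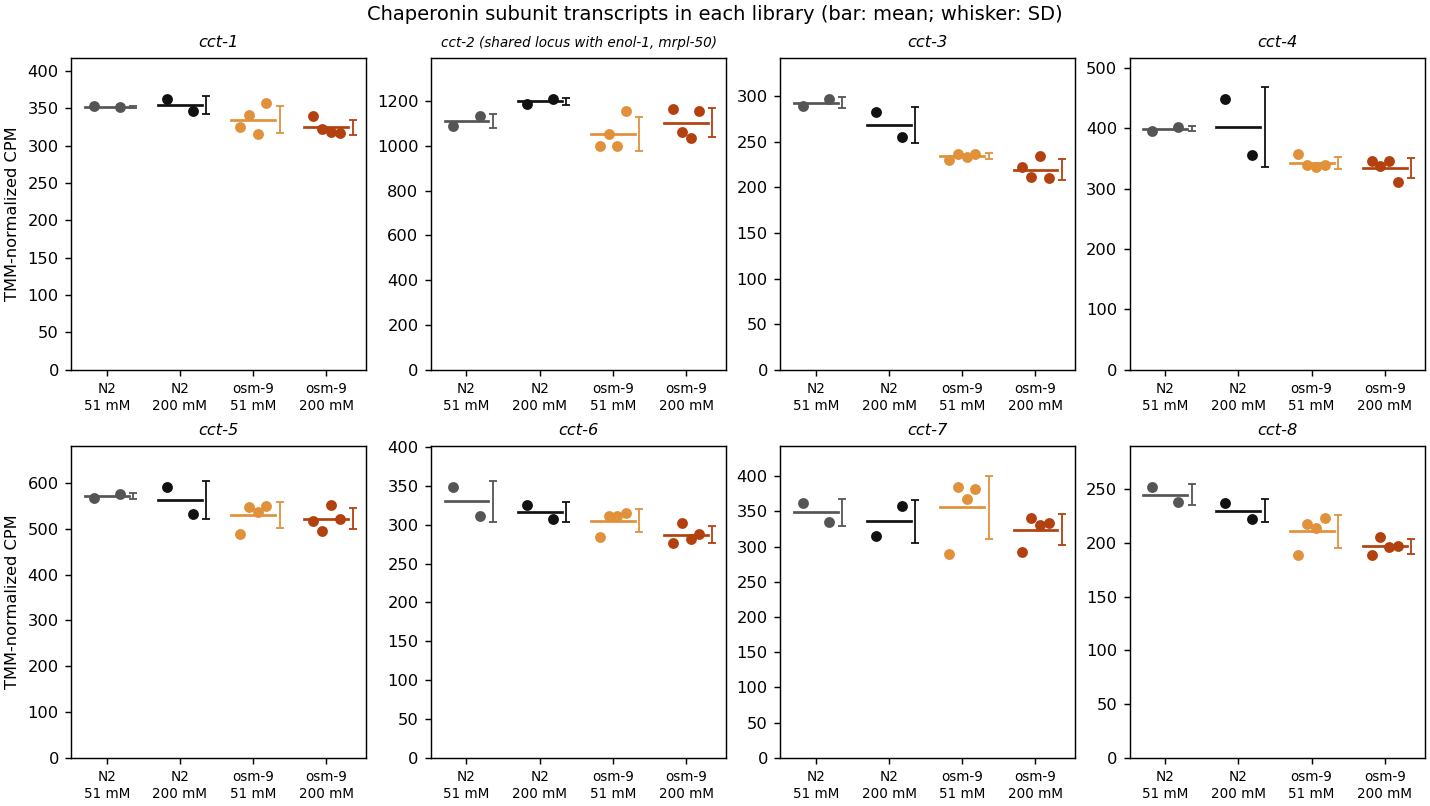
TMM-normalized CPM of each *cct* gene (y axes, from 0) in N2 and *osm-9(ok1677)* worms at 51 and 200 mM NaCl (x axes), with 1 point per library, a bar at the group mean and a whisker for the SD (n = 2 for N2, n = 4 for the mutant). *cct-3* reads 289 and 297 CPM in N2 and 231 to 237 CPM in the mutant at 51 mM, while *cct-7* spans 290.0 to 385 CPM in the mutant; the *cct-2* panel shows the locus joined with *enol-1* and *mrpl-50*.

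At 200 mM NaCl, all 8 log2 fold changes between the strains were below 0 (44.2% of all loci), with a median of -0.13 against 0.05 over all loci. These 6 libraries are not those of the 51 mM comparison, but mutant libraries of the same number deviated together. None of the 8 genes passed the edgeR QL test (6.43% of all loci did in either direction and 2.3% were called lower), 3 of 8 were lower with an unadjusted p at or below 0.05 (11.3% of all loci), DESeq2 called 1, with 11.8% of all loci, and edgeR's exact test called 0, with 10% of all loci. The replicate block called 0 as well, with 9.37% of all loci lower. In 6 of 8 genes every mutant library lay below both N2 libraries, as in 16.8% of all loci, and *cct-3*, *cct-4* and *cct-8* did so at both NaCl concentrations.

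*cct-3* read 282 and 255 CPM in N2 and 223, 211, 234 and 210.1 CPM in the mutant, again without overlap. Its log2 fold change of -0.29 (SE 0.091) was close to the value at 51 mM, with an adjusted p of 0.0789 by the edgeR QL test and of 0.00495 by DESeq2. *cct-4* read 449 and 356 CPM in N2 and 345, 338, 345 and 311 CPM in the mutant. The N2 libraries differed more from each other than the lower one did from the mutant. The log2 fold change was -0.27 (SE 0.11, adjusted p = 0.156 by the edgeR QL test), and it was -0.09 without N2 replicate 1 and -0.49 without N2 replicate 2.

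*cct-8* read 237 and 223 CPM in N2 and 189, 206, 196 and 197 CPM in the mutant. All mutant libraries were lower (log2 fold change -0.22, SE 0.098, adjusted p = 0.191 by the edgeR QL test). *cct-6* read 326 and 307 CPM in N2 and 277, 303, 281 and 288 CPM in the mutant, a smaller gap with a log2 fold change of -0.14.

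*cct-1* (363 and 346 CPM in N2, 339.9, 322, 319 and 318 CPM in the mutant) and the *cct-2* locus (1187 and 1211 CPM in N2, 1165, 1061, 1036 and 1156 CPM in the mutant) separated without overlap as well. Their log2 fold changes were -0.13 and -0.12. *cct-5* and *cct-7* overlapped between the strains. *cct-5* read 592 and 533 CPM in N2 and 518, 496, 553 and 522 CPM in the mutant (log2 fold change -0.11, but -0.03 without N2 replicate 1 and -0.25 without N2 replicate 2). *cct-7* read 315 and 357 CPM in N2 and 292, 341, 330.1 and 333 CPM in the mutant (log2 fold change -0.05).

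**Figure D3:**
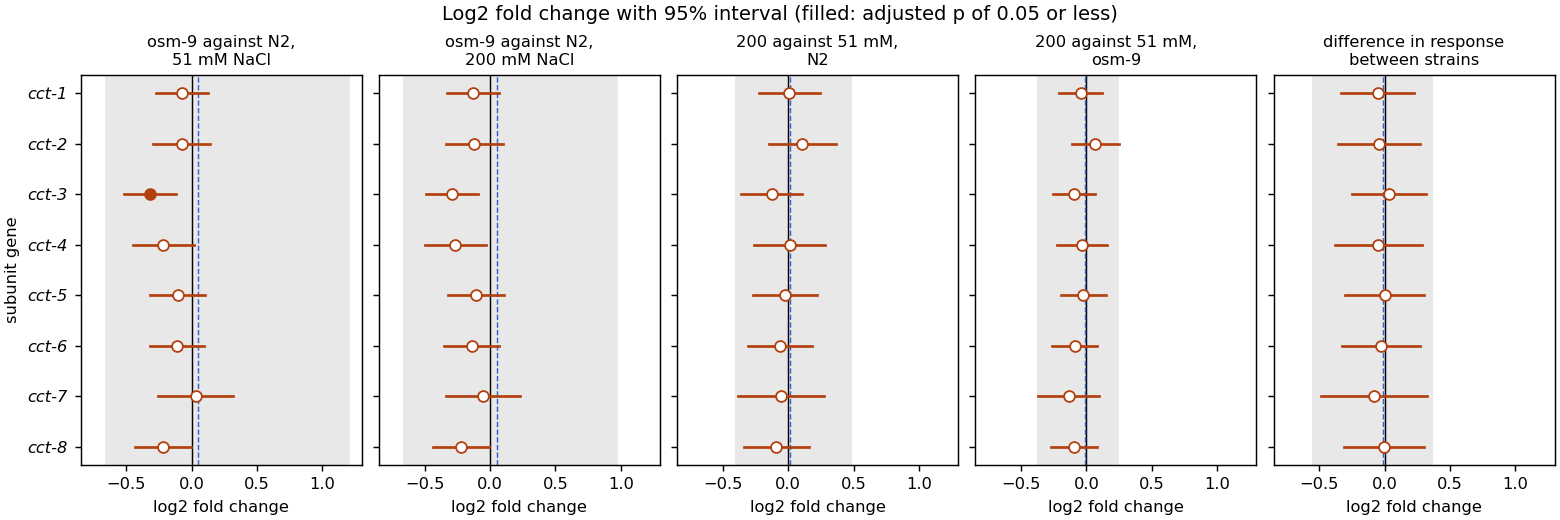
Log2 fold change (x axes) of each *cct* gene (y axis) in the 5 comparisons, with the 95% interval from the edgeR QL fit. The grey band spans the 10th to 90th percentile of all 15403 tested loci and the dashed line their median; the only filled point, an adjusted p of 0.05 or less, is *cct-3* at 51 mM NaCl, at -0.32.

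Within a strain, the 6 h at 200 mM NaCl left the *cct* transcripts close to their control levels. In N2 the log2 fold changes ran from -0.13 for *cct-3* to 0.11 for the *cct-2* locus, with a median of -0.04. No gene passed the edgeR QL test (0.195% of all loci did), none had an unadjusted p at or below 0.05 (4.96% of all loci did), and DESeq2 and edgeR's exact test called none, with 0.837% and 0.643% of all loci. With 2 libraries a group, *cct-3* and *cct-8* were lower without overlap (13.1% of all loci) and the *cct-2* locus was higher without overlap (13.8%). The 95% intervals of the 8 genes in N2 reached from -23.3% to 28.8%, so the data leave room for changes up to that size.

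In *osm-9(ok1677)*, where 4 libraries a group gave a firmer estimate, the log2 fold changes ran from -0.13 for *cct-7* to 0.07 for the *cct-2* locus, with a median of -0.07 and 7 of 8 below 0 (52.1% of all loci). Again no gene passed the edgeR QL test (0.351% of all loci did), none had an unadjusted p at or below 0.05 (5.57% of all loci did), and DESeq2 (1.31%), edgeR's exact test (1.09%) and the fit with the replicate block (2.48%) called none. The groups overlapped for all 8 genes, while 1.89% of all loci were lower and 2.08% higher without overlap. The 95% intervals reached from -22.5% to 18.9%.

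The response to NaCl was also compared between the strains. The differences in log2 fold change lay between -0.08 for *cct-7* and 0.03 for *cct-3*, with intervals from -0.48 to 0.32. No *cct* gene passed the edgeR QL test (0.00649% of all loci did), none had an unadjusted p at or below 0.05 (1.8% of all loci did), and DESeq2 called none (0.039% of all loci).

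The genes did not move as one across the libraries. When each gene was set to its own mean over the 12 libraries, the mean of the 8 lay between 0.10 and 0.13 on the log2 scale in N2 at 51 mM, between 0.04 and 0.13 in N2 at 200 mM, between -0.12 and 0.04 in the mutant at 51 mM and between -0.09 and -0.07 in the mutant at 200 mM. The lowest of the N2 values (0.0446) and the highest of the mutant values (0.0427) nearly touched. Over the 12 libraries, which share strain and treatment, the 28 pairs of genes had a median Pearson r of 0.63, with 26 pairs above 0. With the group means removed the median was 0.27.

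The closest pair was *cct-6* and *cct-8* (r = 0.95 over the 12 libraries, and 0.91 with the group means removed), and the most opposed was *cct-4* and *cct-7* (r = -0.21, and -0.57 with the group means removed). *cct-8* followed the mean of the 8 genes most closely (r = 0.97) and *cct-7* least (r = 0.41), with the joined *cct-2* locus next (r = 0.44). Each gene is itself part of that mean, which raises its r, unlike the loci outside the family given below. Relative to its mean, *cct-7* also varied more than the other *cct* genes in the mutant at 51 mM (coefficient of variation 12.5%, against 1.25% to 7.26% for the others), where replicate 1 lay at 290.0 CPM and the others at 367 to 385 CPM. As a share of the summed per-kilobase level of the 7 separate genes, *cct-3* held 9.06% ± 0.32 (SD, n = 2) in N2 and 7.94% ± 0.27 (SD, n = 4) in the mutant at 51 mM, whereas *cct-5* held 23.8% ± 0.64 and 24.2% ± 0.32.

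**Figure D4:**
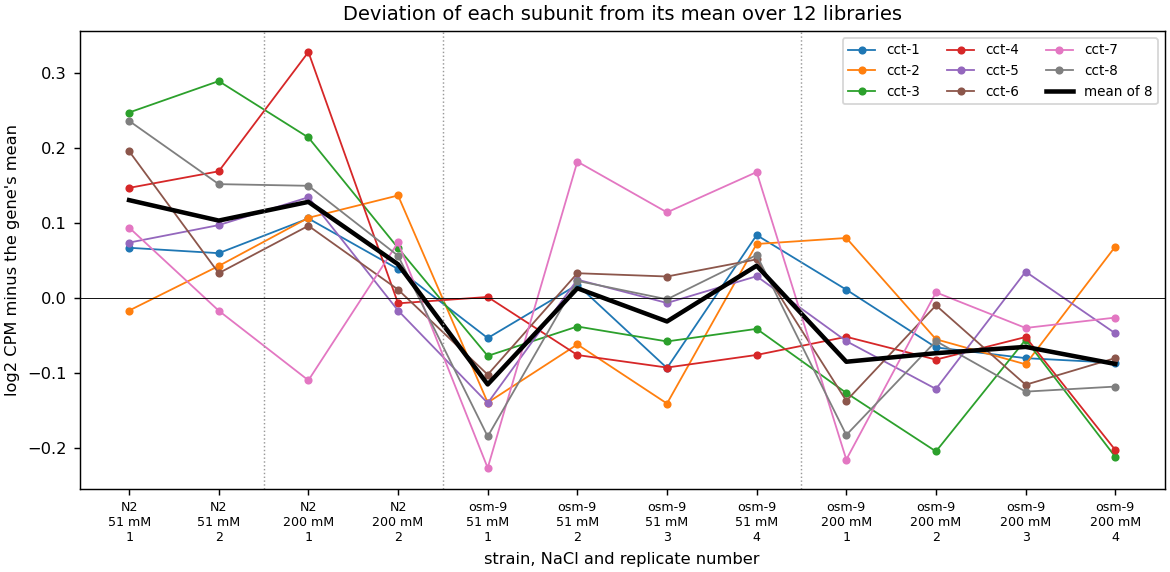
Log2 CPM of each *cct* gene minus its own mean over 12 libraries (y axis), by strain, NaCl concentration and replicate number (x axis). Coloured lines are genes, the black line is the mean of the 8 and dotted lines separate the groups; lines only join points of a gene. The black line lies between 0.04 and 0.13 in N2 and between -0.12 and 0.04 in *osm-9(ok1677)*.

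Outside the family, the 5 loci whose log2 levels followed the mean of the *cct* genes most closely over the 12 libraries, out of 8684 with a mean of at least 10 CPM, were *prmt-1*, an arginine methyltransferase gene (r = 0.96), *pfd-3*, a prefoldin subunit gene (0.95), *hel-1*, an RNA helicase gene (0.94), *arrd-13*, an arrestin domain gene (0.93), and *rpl-41*, a ribosomal protein gene (0.92). These are descriptions of libraries that share strain and treatment.

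The genes of prefoldin, the partner that delivers actin and tubulin, were set beside the *cct* genes. The 6 of them had log2 fold changes between the strains with a median of -0.26 at 51 mM, with 6 of 6 below 0, and of -0.16 at 200 mM, with 5 of 6 below 0. None passed the edgeR QL test at either concentration, 1 had an unadjusted p at or below 0.05 at 51 mM and none at 200 mM. *pfd-3* read 56.0 and 54.6 CPM in N2 and 40.9, 46.8, 44.7 and 51.5 CPM in the mutant at 51 mM. It was lower without overlap at both concentrations (log2 fold changes -0.27 and -0.21, adjusted p = 0.148 and 0.306 by the edgeR QL test). With the replicate block, *pfd-6* passed at 51 mM (log2 fold change -0.51, adjusted p = 0.00998 by the edgeR QL test, against 0.200 without the block; with it 11.1% of all loci were called lower).

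Of 11 cytosolic Hsp70 and Hsp90 system genes tested, none passed the edgeR QL test between the strains, and 0 at 51 mM and 1 at 200 mM, *hsp-110*, had an unadjusted p at or below 0.05. Their medians were -0.11 and -0.15. *hsp-1*, the constitutive Hsp70, had log2 fold changes of -0.06 and -0.16, *daf-21*, the Hsp90, of -0.11 and -0.19, and *hsp-110*, a nucleotide exchange factor for Hsp70, of -0.15 and -0.33.

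The mitochondrial chaperonin gene *hsp-60*, a distant relative of the *cct* genes, read 592 and 756 CPM in N2 and 352, 478, 449 and 358 CPM in the mutant at 51 mM. It read 603 and 713 CPM in N2 and 389.8, 437, 428 and 371 CPM in the mutant at 200 mM. Every mutant library lay below every N2 library at the same NaCl concentration. The log2 fold changes were -0.72 (SE 0.15, adjusted p = 0.0133 by the edgeR QL test) and -0.69 (SE 0.15, adjusted p = 0.0223 by the edgeR QL test), and the changes with NaCl were -0.04 in N2 and -0.01 in the mutant. The call was lost at 51 mM without N2 replicate 2 (adjusted p = 0.142 by the edgeR QL test) or with only the 2 groups in the fit (0.0586), and at 200 mM without N2 replicate 1 (0.0703), N2 replicate 2 (0.169), mutant replicate 1 (0.0502) or mutant replicate 4 (0.0665). The difference between *hsp-60* and the *cct* genes was not itself tested.

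Of the main clients, 20 of 21 listed actin and tubulin genes were tested, and 2 passed the edgeR QL test in the strain comparison at each concentration, both higher in the mutant, where 7.64% of all loci were called higher at 51 mM and 4.13% at 200 mM. The first was *tba-7*, an alpha-tubulin gene that shares its locus with *T28D6.15*, which read 6.92 and 12.1 CPM in N2 and 15.7, 16.0, 19.5 and 17.9 CPM in the mutant at 51 mM. Its log2 fold changes were 0.86 and 1.04 (adjusted p = 0.0383 and 0.0279 by the edgeR QL test). The second was *tba-8*, another alpha-tubulin gene, with 0 and 1 counts in N2 and 14, 31, 37 and 9 counts in the mutant at 51 mM, and 2 and 1 against 18, 17, 24 and 13 counts at 200 mM (adjusted p = 0.00718 and 0.0323 by the edgeR QL test). The medians over the 20 genes were 0.04 and -0.05. With the replicate block, 3 higher and 3 lower passed at 200 mM, where 9.7% of all loci were called higher and 9.37% lower.

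Proteasome and ribosomal protein genes were counted as further parts of protein homeostasis. Of 32 proteasome genes none passed the edgeR QL test (medians -0.02 and -0.06, with 0 and 1 at an unadjusted p at or below 0.05), and of 75 ribosomal protein genes 1 was higher and 1 lower at 51 mM and 1 higher at 200 mM (medians -0.10 and -0.13). Over all loci, 7.64% were called higher and 4.63% lower at 51 mM, and 4.13% higher at 200 mM. The ribosomal protein, proteasome, prefoldin and Hsp70 and Hsp90 system genes, like the *cct* genes, all had medians below 0 in both strain comparisons. A median below 0 was therefore not particular to the *cct* genes, and all loci, to which they were compared, were not matched for level.

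The stress-inducible Hsp70 and small Hsp genes were set beside the constitutive chaperonin. Of 9 listed, 6 were tested. In *osm-9(ok1677)* their log2 fold changes with NaCl had a median of -1.60, and 6 of 6 fell with the replicate block in the fit (1.45% of all loci were called lower there). Without the block 0 of 6 passed the edgeR QL test and 6 had an unadjusted p at or below 0.05. *hsp-16.2*, a small heat shock protein gene, had a log2 fold change of -1.89 with the block (adjusted p = 3.66e-05 by the edgeR QL test) and -1.86 without it (adjusted p = 0.551 by the edgeR QL test). Over the same libraries and with the same block, 0 of 8 *cct* genes passed and their median was -0.07. In N2 the 6 inducible genes had a median log2 fold change with NaCl of -0.56, with 4 of 6 below 0 and none called (0.195% of all loci were). The N2 replicates were far apart here. The summed level of the 9 listed genes was 342 and 56.2 CPM at 51 mM, and 199 and 59.2 CPM at 200 mM. The difference between the strains in the response to NaCl, which rests on these N2 libraries, had a median of -1.06, with none called (0.00649% of all loci were). Between the strains, the block called 2 of the 6 inducible genes higher in the mutant at 51 mM, as 15.3% of all loci, and 4 lower at 200 mM, as 9.37% of all loci, and none were called without it.

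**Figure D5:**
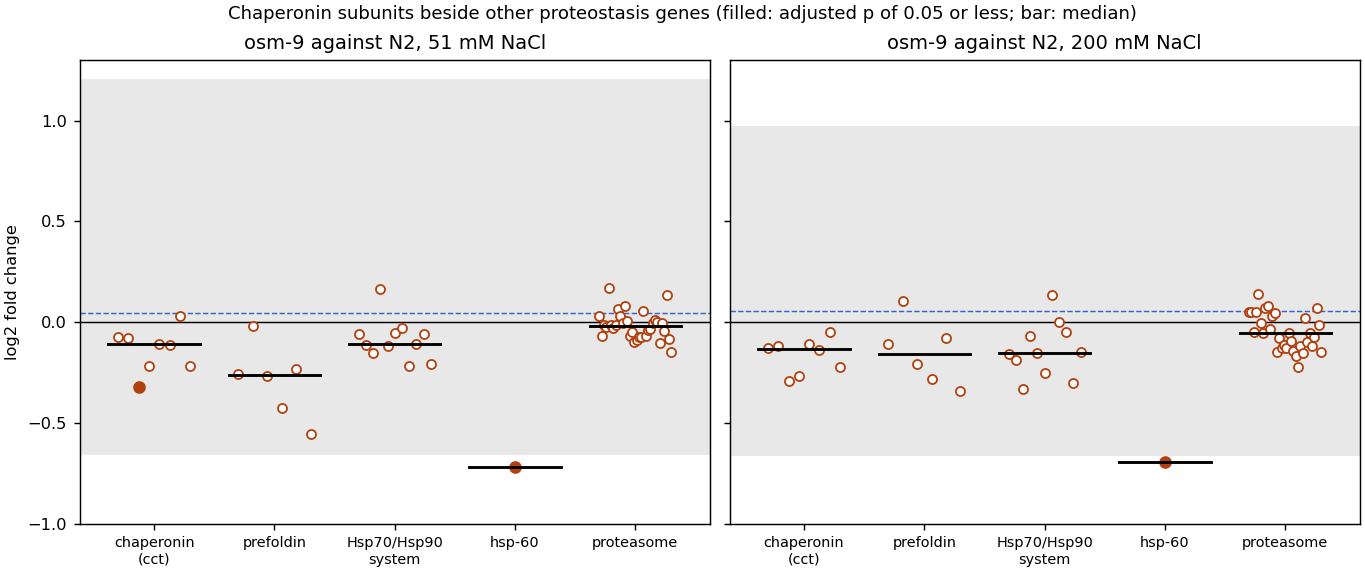
Log2 fold change between *osm-9(ok1677)* and N2 (y axis) at 51 mM (left) and 200 mM NaCl (right) for the *cct* genes and for the prefoldin, Hsp70 and Hsp90, *hsp-60* and proteasome genes (x axis). Points are genes, filled at an adjusted p of 0.05 or less, bars are medians, and the grey band spans the 10th to 90th percentile of all loci with their median dashed; *hsp-60* lies at -0.72 and -0.69, the *cct* medians at -0.11 and -0.13.

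Lists of tissue and stage markers differed in how many of their genes were called between the strains. The summed level of 7 molt genes was 135 to 138 CPM in N2 and 374 to 821 CPM in the mutant at 51 mM, and 189 to 250 against 238 to 731 CPM at 200 mM, with 5 and 1 of 7 called higher, and 6 and 3 with the replicate block. Over all loci, 7.64% and 4.13% were called higher, and 15.3% and 9.7% with the block. The summed level of 35 sperm protein loci was 2505 to 2754 CPM over both N2 groups and 1158 to 2530 CPM over both mutant groups. Of 31 sperm loci tested, 2 were called lower at 51 mM and 3 at 200 mM, where 4.63% and 2.3% of all loci were, and 15 and 16 were called lower with the replicate block, where 11.1% and 9.37% of all loci were.

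The summed level of 5 germline genes was 2321 to 2428 CPM in N2 and 1744 to 2180 CPM in the mutant at 51 mM, and it overlapped at 200 mM (2133 to 2679 against 1844 to 2213 CPM). Of the 5, only *pgl-1* was called lower at 51 mM and none at 200 mM, with or without the block. The yolk protein genes *vit-2*, *vit-5* and *vit-6* had log2 fold changes of -0.99, -1.19 and -0.95 at 51 mM and of -0.92, -1.03 and -0.80 at 200 mM, none called without the block and all 3 called lower with it. Over all loci, 4.63% were called lower at 51 mM and 2.3% at 200 mM, and 11.1% and 9.37% with the block. The oocyte genes *rme-2*, *puf-5*, *cbd-1* and *egg-1* overlapped between the strains, with log2 fold changes from -0.07 to 0.12 at 51 mM and from -0.13 to 0.08 at 200 mM, and none was called with or without the block.

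Of 3 epidermis genes, *dpy-7*, a cuticle collagen gene whose locus is joined with *glb-16*, was called higher at 51 mM (log2 fold change 2.71, adjusted p = 0.0119 by the edgeR QL test). None was called at 200 mM, and 2 of 3 were called higher at each concentration with the block. Without the block, 1 of the 3 was below 0 at each concentration (log2 fold changes -0.41 and -0.33). None of 3 intestine, 4 muscle and 4 neuron genes was called without the block, and with it 1 muscle gene, *myo-3*, was called higher at 51 mM. Over all loci, 7.64% were called higher at 51 mM and 4.13% at 200 mM, and 15.3% and 9.7% with the block. None of these marker loci was at 0 over all 12 libraries, and zeros within single groups were not counted. The part of these tissues and stages in the *cct* differences was not tested. The mutant libraries numbered 2 and 3 had the highest summed molt levels. Their summed yolk and oocyte levels were the lowest (at 51 mM, 13800 and 8852 CPM against 26194 and 30422 CPM). Without these libraries the median log2 fold change of the *cct* genes between the strains was -0.22 at 51 mM and -0.19 at 200 mM. No *cct* gene was then called, with 2 libraries left in each group. This set was chosen after the data were seen, and it does not show what part stage had. Leaving out these libraries also shifted the median locus of all tested, by -0.07 at 51 mM and -0.04 at 200 mM.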

How the data were processed

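RNA of late L4 worms was measured by polyA-selected, paired-end sequencing in 12 samples. Per the labels and the study's methods, the authors aligned reads with TopHat 1.4.1 to assembly WS235, assigned them to Ensembl genes with Cufflinks 2.0.1 and used edgeR 3.2.4. The deposited values are whole-number counts per locus, not normalized. Samples were grouped by their titles, and 0 columns were left unmapped.

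Counts were filtered with filterByExpr (minimum count 10, minimum total 15), scaled by TMM and fitted over all 12 samples with 1 mean per group by edgeR 4.0.16 (quasi-likelihood, R 4.3.3). Tests were two-sided, with Benjamini-Hochberg adjustment over 15403 loci, and adjusted p of 0.05 or less was called. In the table, 3706 loci join several genes. Log2 CPM used a prior count of 2. Intervals cover 95%. At these depths 3 counts equal 0.137 to 0.186 CPM. The *cct* genes and all lists were chosen with earlier results of these data known. Every *cct* gene is named; of the list genes, *hsp-1*, *daf-21*, *hsp-110*, *hsp-60*, called clients and the 5 loci most like the *cct* mean were named by rule, and *pfd-3*, *pfd-6*, *hsp-16.2* and the marker genes after their values were seen. Positions and exon lengths came from the Ensembl 115 annotation of WBcel235.

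Alternatives were RLE size factors, no filter, at least 10 counts in every sample, DESeq2 1.42.0, edgeR's exact test, only the groups compared, a replicate block, and each library left out. Leaving out *osm-9(ok1677)* libraries 2 and 3, or the *cct-2* locus, was chosen after seeing the data. Replicate numbers come from the titles: after removing group means, same-numbered *osm-9(ok1677)* libraries at 51 and 200 mM correlated across loci (r = 0.70, 0.52, 0.81 and 0.59), each best with its own number, so the numbers were taken to pair them. Between the strains 2 numbers are shared (r from 0.19 to 0.47). There, N2 replicate 1 at 200 mM correlated best with its own number (0.47, against 0.22 for the best other). N2 replicates 1 and 2 at 51 mM and replicate 2 at 200 mM correlated better with another mutant number (0.39 against 0.52, 0.37 against 0.51 and 0.19 against 0.43). With 2 N2 libraries a group, their values after removing group means mirror each other, so replicates 1 and 2 are not separate evidence. The numbers are therefore not shown to pair libraries between the strains. No libraries were duplicates: 41.4% to 70.8% of loci differed beyond sampling noise between replicates. On simulated counts for the 51 mM strain comparison (15172 loci), the test recovered 40 of 50 loci raised 4-fold, 41 of 50 lowered to 0.25, 20 of 50 raised 2-fold and 18 of 50 lowered to 0.5, with 8 false calls. Sequences were not used here.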

Additional observations from a re-analysis of the deposited data

Results flagged for a closer look

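In groups of 4, 36 sets of values were searched for a library far from the rest, where chance alone marks about 1 in 20. Replicate 1 of *osm-9(ok1677)* at 51 mM NaCl lay low for *cct-6*, at 284 CPM against 311 to 316 CPM in the others, a gap of 0.845 of the whole range. The same replicate lay high for *hsp-110* at 51 mM (517 CPM against 456 to 467 CPM) and at 200 mM NaCl (478 CPM against 379 to 391 CPM).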

How the results depend on the processing

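For *osm-9(ok1677)* against N2 at 51 mM NaCl, the number of *cct* genes called (1) was 0 with at least 10 counts in every sample, 0 by edgeR's exact test, 0 with only the 2 groups, 0 without mutant libraries 2 and 3, 2 by DESeq2, and from 0 to 0 without single libraries. At 200 mM (0) it was 1 by DESeq2 and 0 to 0 without single libraries. The median log2 fold change at 51 mM (-0.11) was -0.19 with no filter, -0.18 with only the 2 groups, -0.22 without mutant libraries 2 and 3, and -0.20 (without N2 replicate 2) to -0.0733 without single libraries. At 200 mM (-0.13) it was -0.20 with no filter, -0.19 without mutant libraries 2 and 3, and -0.25 (without N2 replicate 2) to -0.12 without single libraries. Without single libraries, the median NaCl response of N2 (-0.04) ranged from -0.105 to 0.00619 and the strain difference in response (-0.03) from -0.0583 to 0.0301. All loci shifted too: by a median of -0.08 (no filter), -0.07 (only the 2 groups) and -0.07 (without libraries 2 and 3) at 51 mM. At 200 mM their median shift was -0.06 (no filter) and -0.04 (without libraries 2 and 3). Most of the *cct* shift in these settings was therefore shared by all loci. The cause of the rest, and of the shifts without single libraries, was not tested. *cct-3* at 51 mM kept its call with RLE factors, no filter, DESeq2 and the replicate block, and had an adjusted p of 0.0533 with at least 10 counts, 0.0937 by the exact test, 0.101 with only the 2 groups and 0.0749 without libraries 2 and 3. The replicate block (*cct* medians -0.14 and -0.15 between the strains) changed no *cct* call. Uncalled log2 fold changes of single *cct* genes changed sign in 9 of 112 values at 51 mM, 0 of 112 at 200 mM, 13 of 96 and 1 of 128 within N2 and the mutant, and 33 of 144 for the difference in response. Apart from single libraries left out, which were not examined for this, no setting moved the median of all loci by over 0.1; the largest shift was -0.08. With 2 N2 libraries a group, the median SE of the *cct* log2 fold changes between strains was 0.097, which limits what small differences can be shown.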
